A study of Homo sapiens with 4 samples.

Results

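KMS28BM cells labelled as taken after sorting on a microfluidic chip were compared with KMS28BM cells labelled as taken before it, across all genes that reached 1 FPKM in either library. FPKM counts sequenced fragments per transcript length and per size of the library, so that levels of different genes can be set side by side per length. Of 60612 gene IDs in the table, 10472 met this rule, and 8922 of them were protein-coding in the GENCODE 29 annotation. KMS28BM is an established human multiple myeloma line, and the other line of the study, H929, was handled in the same way and is used here only to show where KMS28BM differs. No drug, allele or time is given in the labels, so that sorting is the only labelled difference between the KMS28BM groups. Any other difference between their libraries cannot be told apart from it. Each side is 1 library, so no difference has a replicate check and no p-value of its own is given. The series title appears to name the sorting the other way round from the sample labels. The sample labels are followed, and if the title is right instead, all directions below are reversed. Ratios divide the FPKM plus 1 labelled after by that labelled before and are given as log2, a scale that understates the change of genes at low level. Of the genes nearest to the cutoff, AC073548 was just inside at 1.001 FPKM labelled after and 0.907 FPKM labelled before, and GTF2IP20 just outside at 0.932 and 0.9995 FPKM.

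Multiple myeloma is a cancer of plasma cells, the antibody-secreting end stage of the B lineage. Such cells keep a large endoplasmic reticulum, where immunoglobulin chains are folded and glycosylated before they travel through the Golgi, and they depend on the proteasome and on the unfolded protein response, a set of pathways that expand this machinery. Some myelomas carry a translocation between chromosomes 4 and 14 that drives the histone methyltransferase NSD2 and often the receptor FGFR3. Passage through a chip exposes cells to shear, time out of culture and, if cells are selected, a change in the mix of cells. In a bulk library a smaller share of some cells and less RNA per cell cannot be told apart.

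Most genes of the plasma cell programme were measured in KMS28BM. Of 31 such genes 23 reached 1 FPKM in either library, while 2 were at the floor of 0.0001 FPKM in both. The surface proteoglycan SDC1 was at 148 FPKM labelled after and 187 FPKM labelled before, the lineage factor IRF4 at 53.4 and 35.0 FPKM, and the antibody joining chain JCHAIN at 2430 and 1422 FPKM. FGFR3 stood at 159 and 162 FPKM and NSD2 at 9.63 and 7.16 FPKM. The most abundant immunoglobulin transcripts were of lambda light chain type, with IGLC3 at 5526 FPKM labelled after and 6983 FPKM labelled before, while IGKC of the kappa type was at 781 and 809 FPKM. Markers of other cells were near absent: 0 of 12 T and NK cell markers, 0 of 7 for neutrophils, 0 of 5 for megakaryocytes and platelets, 0 of 11 for stroma and 0 of 6 for fat cells reached 1 FPKM. The exceptions were CD68 of macrophages at 1.77 FPKM labelled after and 1.87 FPKM labelled before, HBD of erythroid cells at 6.57 and 7.16 FPKM, ESAM of endothelium at 0.673 and 1.73 FPKM, and the epithelial genes KRT18 at 1.23 and 2.22 FPKM and ELF3 at 28.3 and 32.1 FPKM. All 5 were lower in the library labelled after, as were 4251 of the 10472 genes measured. Their ratios were -0.70 for ESAM, -0.53 for KRT18, -0.18 for ELF3, -0.11 for HBD and -0.05 for CD68.

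Depth was similar on both sides. Estimated from the smallest steps in the values, it was 23.4 M fragments labelled after and 21.2 M fragments labelled before, so that 1 FPKM on a transcript of 2000 bases stood for about 46.7 and 42.3 fragments. Counting error alone gives the ratio used here, with its pseudocount of 1, an SE of 0.153 for such a transcript at 1 FPKM in both libraries and of 0.114 at 5 FPKM. At least 1 FPKM was reached by 10177 genes labelled after and 9303 labelled before, and at least 100 FPKM by 432 and 475. The 20 most abundant genes held 28.5% and 28.1% of the summed FPKM. The top of both libraries was mitochondrial, led by MT-CO3, a cytochrome oxidase subunit, at 11018 FPKM labelled after and 10906 FPKM labelled before. It also held the lambda chain genes, the iron store FTL at 3316 and 4280 FPKM, the actin-binding peptide TMSB10 at 2390 and 2775 FPKM and the trypsinogen PRSS2, best known from the pancreas, at 3046 and 2970 FPKM. None of these 20 differed by 2-fold between the libraries.

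Across the 10472 genes, most ratios were small and more genes were higher than lower. The median ratio was 0.12, the middle 50% of genes lay between -0.19 and 0.47, and 59.4% were above 0. In the library labelled after, 433 genes were 2-fold or more higher (4.13% of those measured) and 117 were 2-fold or more lower (1.12%). Centred on the median of all genes, which takes away the shift of 0.12, the split was 266 higher and 148 lower, so that part of the excess of higher genes is that shift. At 4-fold, 26 genes were higher and 19 lower. The shift depended on level: genes whose higher value was between 1 and 5 FPKM had a median ratio of 0.22, those between 5 and 20 FPKM 0.09, those between 20 and 100 FPKM -0.08, and the 499 genes at 100 FPKM or more -0.21. With the trend in base composition and length described next removed, these medians were 0.02, 0.02, -0.04 and -0.08.

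**Figure D1:**
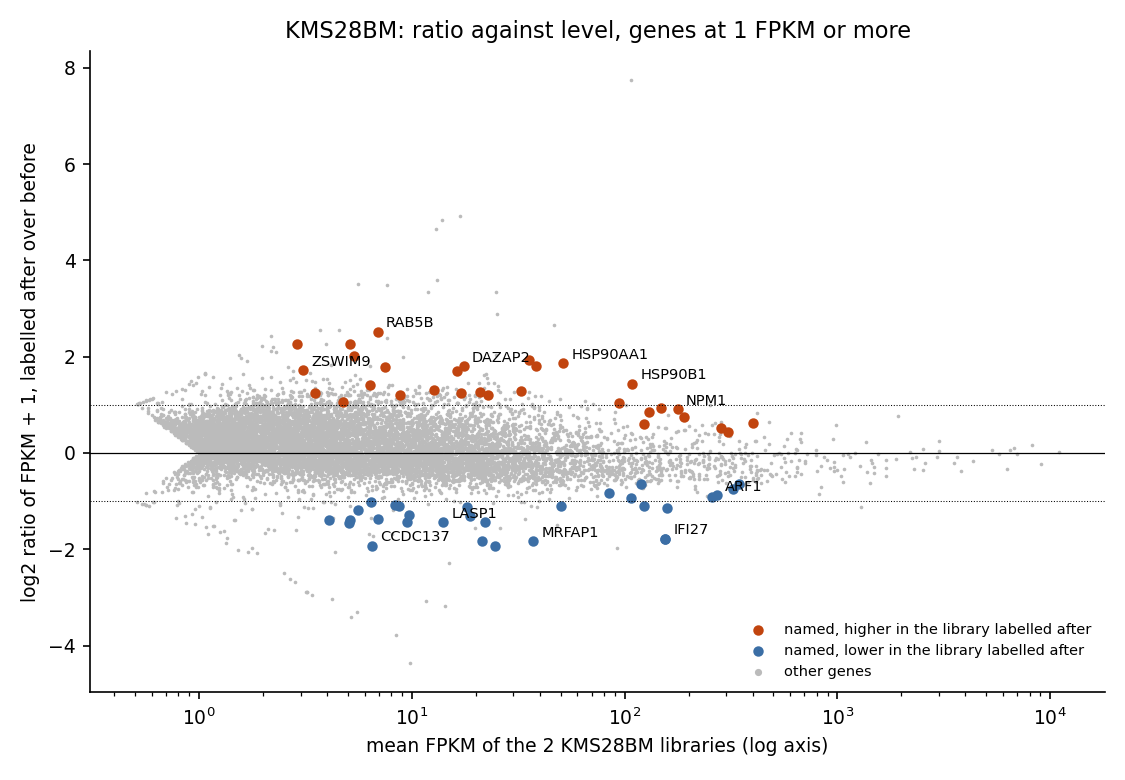
Each point is 1 of 10472 genes, with the mean FPKM of both KMS28BM libraries on a log axis and upward the log2 ratio, labelled after over before, with a pseudocount of 1; dotted lines mark 2-fold, and coloured points are the named protein-coding genes with little shared sequence. The cloud slopes down with level, with a median of 0.22 for genes under 5 FPKM and of -0.21 for genes that reached 100 FPKM. Many, but not all, of the largest ratios in grey belong to gene models that share sequence with others.

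The ratio followed the base composition and the length of the transcript. Spearman's rho across 8922 protein-coding genes was -0.746 with GC content, the percentage of G and C bases, and 0.391 with length. These are descriptions, since genes of 1 library pair are not independent. In the decile of genes poorest in GC, with 37.8% at its median, the ratio was centred on 0.68 and 13.5% of genes were 2-fold higher. In the decile richest in GC, with 64.6% at its median, the ratio was centred on -0.32 and 0.336% of genes were 2-fold higher. The shortest decile, around 1019 bases, was centred on -0.22 and the longest, around 8044 bases, on 0.38. Length added to GC content: in the tercile of genes with least GC the ratio had a median of 0.44 for the shortest and 0.61 for the longest tercile, and in that with most GC the medians were -0.34 and -0.06. The genes past 2-fold differed accordingly, with 40.7% GC and 4116 bases at the median for those higher, 58.2% and 1799 bases for those lower, and 50.2% and 3055 bases over all these genes.

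A smooth trend in GC content and length, fitted on the protein-coding genes, took up 51.0% of the variance of the ratio. With it removed, 121 of the 10423 genes with a known GC content passed 2-fold upward (1.16%) and 130 downward (1.25%). Of the genes called as deposited, 98 of 433 higher and 84 of 117 lower ones were among them. In H929 the trend ran the other way, with a rho of 0.544 with GC content and -0.358 with length, and took up 30.5% of the variance there. The composition trend moves with the sorting label in both lines, in opposite directions, and its part in the results below was not tested. Single genes are given by their deposited FPKM, and the lists they belong to by their medians as deposited and with the trend removed.

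**Figure D2:**
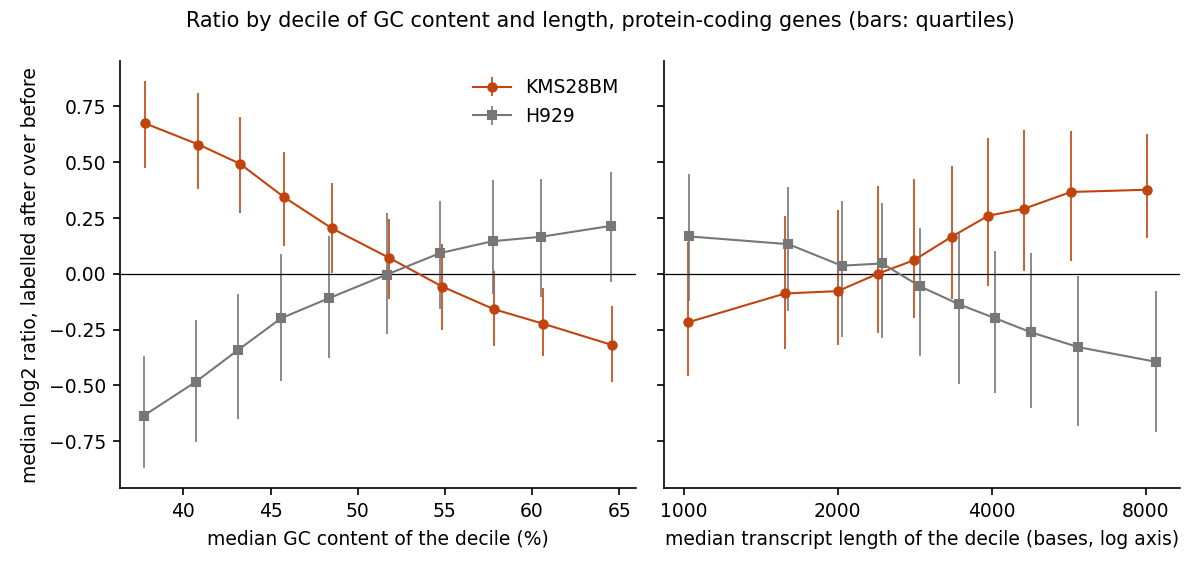
Points are the median log2 ratio, labelled after over before, in each decile of the protein-coding genes by GC content (left, %) and by transcript length (right, bases on a log axis), for KMS28BM and H929; bars are the quartiles. In KMS28BM the medians slope down with GC content, 0.68 in the lowest and -0.32 in the highest decile, and in H929 the slope is opposite.

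The composition trend can also be seen between related genes. Such genes are among those that gave the trend, so the pairs illustrate it and do not test it. Of 86 pairs of paralogues, chosen after some values had been seen, 52 had both partners protein-coding and at 5 FPKM or more. The partner with less GC had the higher ratio in 42 of the 52 pairs, and in 31 of the 33 pairs whose GC content differed by 5 percentage points or more, where the median difference in ratio was 0.59. With the trend removed this held in 22 of the 33, with a median difference of 0.15, and in H929 as deposited in 9 of the 33, with a median difference of -0.40. For 3 of the 4 pairs with the largest difference among these 33, a stretch of 90 coding bases is shown from GENCODE 29 on GRCh38, with G and C in capitals. It is the stretch where positions 1 and 2 of the codons match best between the partners without gaps, so that the letters can be compared in register, codon by codon.

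LMAN1: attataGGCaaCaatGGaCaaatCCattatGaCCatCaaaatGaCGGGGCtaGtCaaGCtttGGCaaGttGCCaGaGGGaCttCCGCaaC
LMAN2: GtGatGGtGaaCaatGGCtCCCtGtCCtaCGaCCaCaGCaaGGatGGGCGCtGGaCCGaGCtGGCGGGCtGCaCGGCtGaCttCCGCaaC
ARPC5: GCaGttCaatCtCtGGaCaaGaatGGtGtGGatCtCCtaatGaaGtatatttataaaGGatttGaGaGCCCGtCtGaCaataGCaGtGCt
ARPC5L: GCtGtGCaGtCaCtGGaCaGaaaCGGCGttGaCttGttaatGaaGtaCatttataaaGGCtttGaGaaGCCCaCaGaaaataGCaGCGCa
TMED7: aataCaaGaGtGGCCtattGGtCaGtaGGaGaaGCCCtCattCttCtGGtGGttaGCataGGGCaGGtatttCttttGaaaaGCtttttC
TMED9: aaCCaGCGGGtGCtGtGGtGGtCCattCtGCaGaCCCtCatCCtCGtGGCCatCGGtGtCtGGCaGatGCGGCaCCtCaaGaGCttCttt

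At the last position of the 30 codons shown, LMAN1 and LMAN2 differed in 19, with G or C in 46.7% in LMAN1 and 90% in LMAN2. ARPC5 and ARPC5L differed there in 18, with 40.0% and 56.7%, and TMED7 and TMED9 in 22, with 43.3% and 90%.

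RAB1A and RAB1B, GTPases of transport between the endoplasmic reticulum and the Golgi, make up the other pair. RAB1A had G or C at 41.3% of the last positions of its codons, and RAB1B at 76.2%. RAB1A was at 19.1 FPKM labelled after and 7.68 FPKM labelled before, while RAB1B was at 126 and 169 FPKM. LMAN1 and LMAN2 are lectins that carry glycoproteins out of the endoplasmic reticulum. LMAN1, on chromosome 18 at 59327823 to 59359962 on the minus strand, was at 43.1 FPKM labelled after and 17.3 FPKM labelled before, and LMAN2, on chromosome 5 at 177331562 to 177351852 on the minus strand, at 161 and 208 FPKM. ARPC5 and ARPC5L are alternative subunits of the actin-branching ARP2/3 complex, and ARPC5, on chromosome 1 at 183620846 to 183635757 on the minus strand, was at 8.95 and 2.42 FPKM. ARPC5L, on chromosome 9 at 124862130 to 124877733 on the plus strand, was at 93.5 and 93.2 FPKM. TMED7 and TMED9 are cargo receptors of the same route. TMED7, on chromosome 5 at 115613508 to 115632992 on the minus strand, was at 13.97 FPKM labelled after and 8.05 FPKM labelled before, and TMED9, on chromosome 5 at 177592158 to 177596124 on the plus strand, at 158 and 268 FPKM. In each of these pairs the less abundant partner was the one with less GC.

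**Figure D3:**
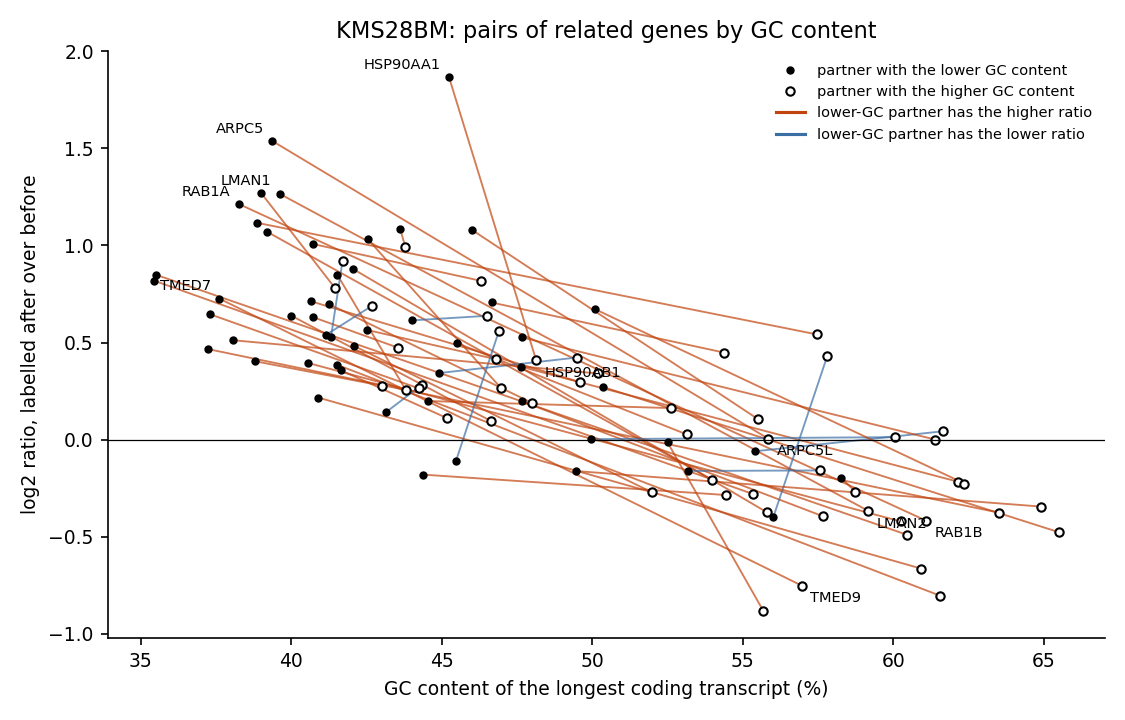
Each line joins 1 of 52 pairs of related genes, with the GC content of the longest coding transcript (%) across and the log2 ratio, labelled after over before, upward. The line falls toward the partner with more GC in 42 pairs, and the 5 pairs with the largest difference are named.

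The largest differences against this order were between partners of nearly equal GC content. The cytoplasmic actins differ little in GC content, yet ACTG1 was at 353 FPKM labelled after and 261 FPKM labelled before, and ACTB at 338 and 446 FPKM. VDAC1, a pore of the outer mitochondrial membrane, was at 123 FPKM labelled after and 83.0 FPKM labelled before, while VDAC2 was at 41.4 and 44.8 FPKM. HSP90AA1 and HSP90AB1, the inducible and constitutive cytosolic HSP90 chaperones, followed the order, although their GC content differs by less than 5 percentage points. HSP90AA1 was at 81.5 FPKM labelled after and 21.6 FPKM labelled before, and HSP90AB1 at 769 and 578 FPKM, ratios of 1.87 and 0.41.

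Genes that stood out beyond composition were taken from the 4214 protein-coding genes with 5 FPKM or more on either side that share under 20% of their 50-base words with another gene. Each was ranked by whichever of its ratios, as deposited or with the trend removed, lay nearer to 0, and the first 20 each way were taken. On both scales 23 of the 4214 passed 2-fold upward and 23 downward. The 20 higher genes had ratios between 1.07 and 2.52 and a median GC content of 48.5%, and the 20 lower genes ratios between 1.02 and 1.93 in size and a median GC content of 55.8%. In H929, where 1.59% of all genes were 2-fold higher and 5.17% lower, 3 of the 20 higher genes were 2-fold higher and 6 lower, and 2 of the 20 lower genes were 2-fold higher and 0 lower.

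RAB5B, a GTPase of early endosomes, led the higher genes. It was at 12.5 FPKM labelled after and 1.35 FPKM labelled before, a ratio of 2.52, or 2.10 with the trend removed. Of its paralogues, RAB5A was at 5.55 and 2.56 FPKM and RAB5C at 69.7 and 90.7 FPKM. SPATA2, which links the deubiquitinase CYLD to the linear ubiquitin ligase complex, was at 9.17 FPKM labelled after and 1.13 FPKM labelled before. PMAIP1, which encodes NOXA, an inhibitor of the survival protein MCL1, was at 56.5 FPKM labelled after and 14.2 FPKM labelled before. Among factors of protein synthesis, EPRS1, the glutamyl-prolyl-tRNA synthetase, was at 59.8 and 16.5 FPKM, EIF3A, the largest subunit of initiation factor 3, at 25.3 and 7.12 FPKM, and MRPL49 of the mitochondrial ribosome at 24.3 and 9.74 FPKM. UHMK1, a kinase that acts on splicing factors, was at 9.19 FPKM labelled after and 1.51 FPKM labelled before. DAZAP2 was at 27.9 and 7.22 FPKM, ZC3H15 at 12.2 and 2.81 FPKM and ZSWIM9 at 5.25 and 0.888 FPKM.

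The other higher genes spanned several roles. ZNF146, a zinc finger protein, was at 5.43 FPKM labelled after and 0.336 FPKM labelled before, a ratio of 2.27. MAFG, a small partner of the stress factor NRF2, was at 5.34 and 1.65 FPKM, and RNF4, a ubiquitin ligase for proteins tagged with SUMO, at 9.73 and 3.01 FPKM. PSME3, the nuclear proteasome activator, was at 46.8 FPKM labelled after and 18.5 FPKM labelled before. TPM4, a tropomyosin of the actin cytoskeleton, was at 29.9 and 11.8 FPKM, and the adaptor NCK2, which links receptors to actin, at 6.80 and 2.73 FPKM. PIP4K2C, a phosphoinositide kinase, was at 12.7 FPKM labelled after and 4.93 FPKM labelled before. The palmitoyltransferase ZDHHC18 was at 18.6 and 6.91 FPKM, and TXLNA, a syntaxin-binding protein, at 32.0 and 13.4 FPKM. NCK2, ZDHHC18, MAFG and ZSWIM9 had a GC content of 57.2% to 65.0%, where most genes were lower, so their ratio grew or held when the trend was removed.

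MRFAP1 and CCDC137 headed the lower genes. MRFAP1, a partner of the chromatin protein MORF4L1, was at 15.7 FPKM labelled after and 58.6 FPKM labelled before, a ratio of -1.84 that was -1.88 with the trend removed. CCDC137 was at 2.12 and 10.8 FPKM. RBM38, an RNA-binding target of p53 that stabilises the CDKN1A message, was at 8.81 FPKM labelled after and 33.8 FPKM labelled before. IFI27, an interferon-induced mitochondrial protein, was at 69.3 and 241 FPKM. ZDHHC12, another palmitoyltransferase, was at 9.65 FPKM labelled after and 39.7 FPKM labelled before. PIK3IP1, a membrane inhibitor of PI3 kinase, was at 2.25 and 7.84 FPKM, and LASP1, an actin-binding scaffold, at 7.11 and 21.02 FPKM. HSH2D, an adaptor of lymphocytes, was at 4.69 FPKM labelled after and 14.3 FPKM labelled before.

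**Figure D4:**
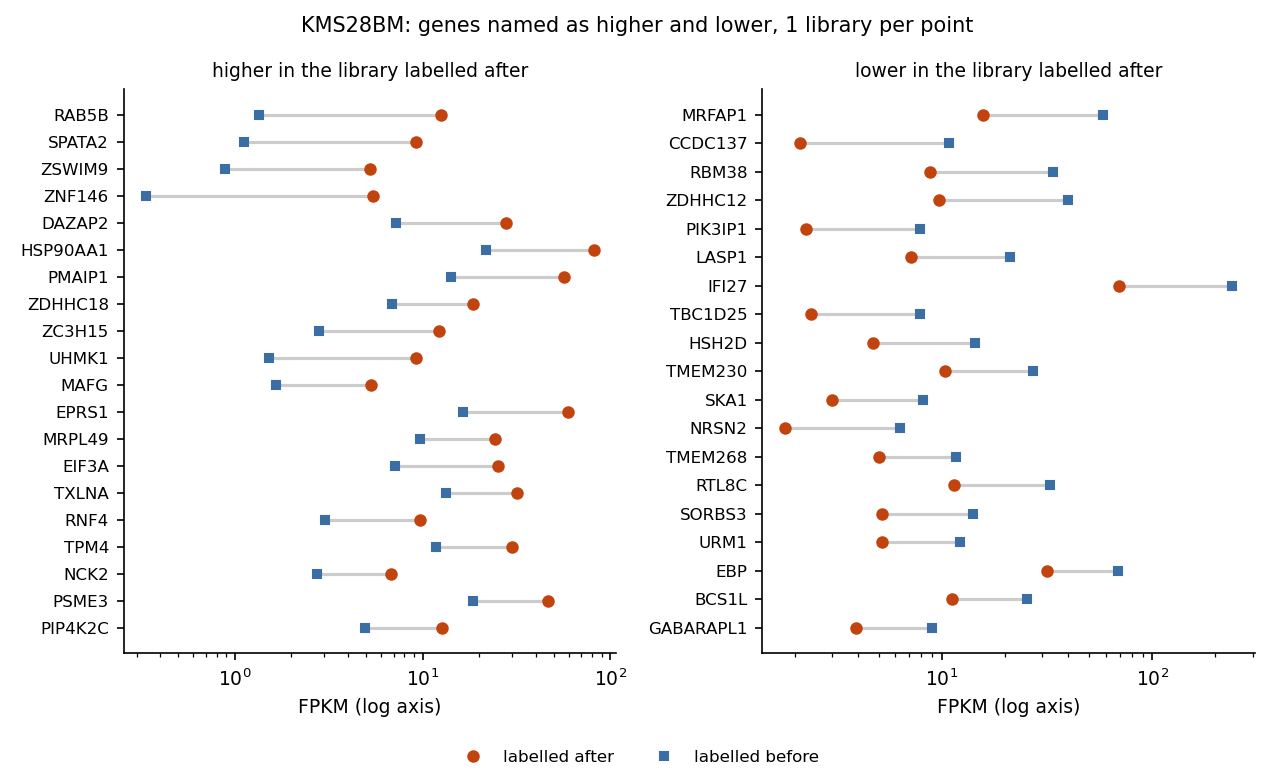
FPKM on a log axis of the 20 genes named as higher (left) and of 19 of the 20 lowest (right), 1 library per point, with circles for the library labelled after and squares for that labelled before. RAB5B, at 12.5 FPKM labelled after and 1.35 FPKM labelled before, and MRFAP1, at 15.7 and 58.6 FPKM, head the panels.

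The remaining lower genes included parts of autophagy, sterol synthesis and mitochondria. GABARAPL1, a ubiquitin-like protein of autophagosomes, was at 3.90 FPKM labelled after and 8.97 FPKM labelled before, and TBC1D25, which acts on RAB33B in autophagy, at 2.38 and 7.87 FPKM. EBP, the sterol isomerase of cholesterol synthesis, was at 31.5 and 69.0 FPKM. BCS1L, which assembles respiratory complex III, was at 11.1 FPKM labelled after and 25.4 FPKM labelled before. SKA1, which couples kinetochores to microtubules, was at 2.999 and 8.15 FPKM, the 1 gene of the kinetochore list 2-fold lower. URM1, a ubiquitin-like protein that carries sulphur for tRNA modification, was at 5.199 and 12.2 FPKM. TMEM230 was at 10.3 FPKM labelled after and 27.1 FPKM labelled before, TMEM268 at 5.02 and 11.7 FPKM, RTL8C at 11.4 and 32.6 FPKM, SORBS3 at 5.21 and 14.1 FPKM and NRSN2 at 1.79 and 6.35 FPKM.

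The same ranking among 343 abundant genes, at 100 FPKM or more, gave smaller ratios with the least counting error. HSP90B1, the HSP90 chaperone of the endoplasmic reticulum, was highest, at 159 FPKM labelled after and 57.8 FPKM labelled before. It was followed by HMGB2, a chromatin protein of cycling cells, at 168 and 92.9 FPKM, and by SNRPD2 of the spliceosome at 239 and 142 FPKM. NCL and NPM1, the main proteins of the nucleolus, were at 127 and 61.2 FPKM and at 232 and 123 FPKM, and HSPD1, the mitochondrial chaperonin, at 194 and 102 FPKM. PTMA, RPS24, RPN2 and ACTG1 had ratios between 0.43 and 0.62. At the other end below IFI27, PTP4A3, a phosphatase known from metastasis, was at 78.5 FPKM labelled after and 169 FPKM labelled before. PPP1R14B was at 98.6 and 219 FPKM. PKM, the glycolytic pyruvate kinase, was at 179 and 338 FPKM, and ARF1, the GTPase that recruits COPI coats, at 190.5 and 352 FPKM. UCHL1, a deubiquitinase made mainly in neurons and in some B lineage cancers, was at 241 FPKM labelled after and 403 FPKM labelled before, and at 0.192 and 0.291 FPKM in H929. TIMM10 and TOMM7, of protein import into mitochondria, were at 73.6 and 141 FPKM and at 60.6 and 109 FPKM, COX7C of the respiratory chain at 92.2 and 145 FPKM and RPL28 of the ribosome at 269 and 423 FPKM.

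Gene groups were then described by 73 lists beside the markers of other cells, and 72 of them had 3 or more measured members. As deposited, the median ratio of a list lay between -0.18 and 0.83, and 31 lists had a median of 0.2 or more, against 0.12 over all genes. With the trend removed the medians lay between -0.34 and 0.34, and 2 lists stood at 0.2 or more and 1 at -0.2 or less, against 0.01 over all genes. In each of the 70 lists with 10 or more members with a known GC content, members with less GC had higher ratios, with rho between -0.914 and -0.143. The list counts below are read against the 4.13% of all genes 2-fold higher and the 1.12% lower.

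**Figure D5:**
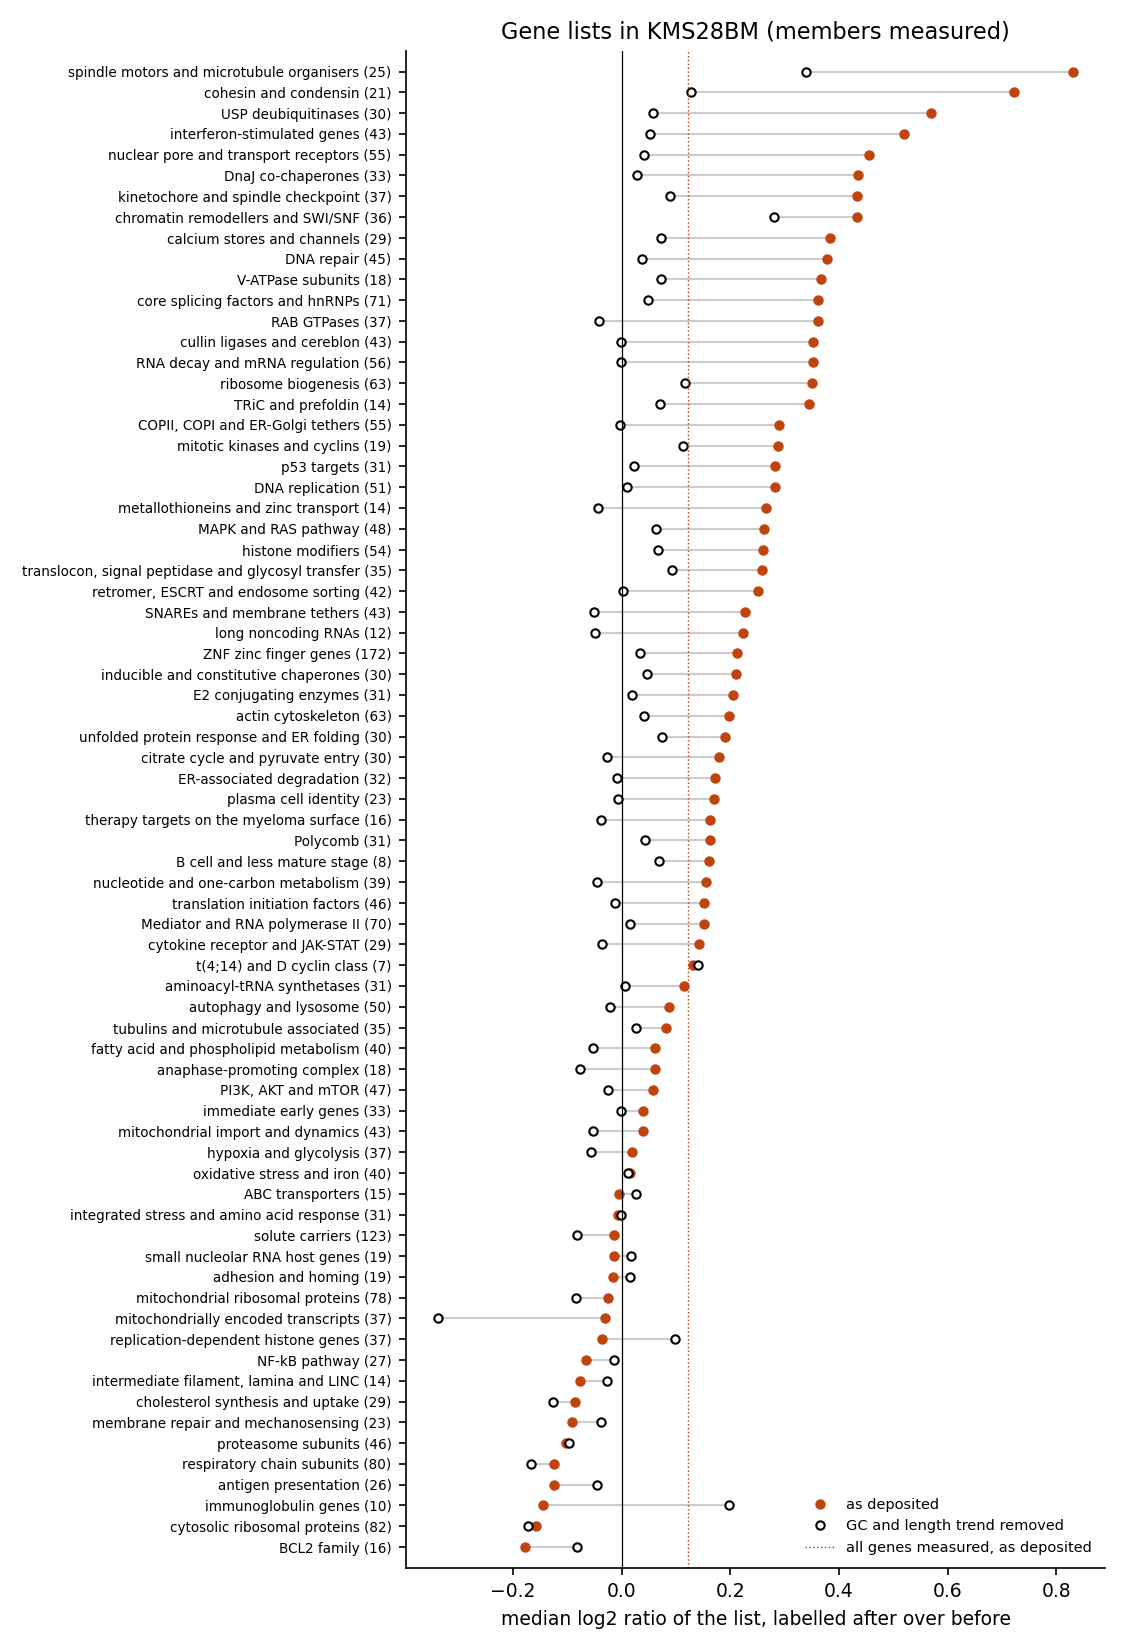
Median log2 ratio, labelled after over before, of the gene lists as deposited (filled) and with the trend in GC content and length removed (open); members measured are in brackets and the dotted line is the median of all genes as deposited, 0.12. Most filled points to the right move close to 0 once the trend is removed, and spindle motors at 0.34 and chromatin remodellers at 0.28 stay highest.

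Of the lists of mitosis, spindle motors and cohesin had the highest medians of all lists as deposited. Of 25 spindle motors and microtubule organisers, 9 passed 2-fold upward and 0 downward; their median was 0.83, and 22 were above 0. DLGAP5, which stabilises spindle fibres, was at 5.54 FPKM labelled after and 1.08 FPKM labelled before, the motor KIF11 that pushes spindle poles apart at 7.60 and 2.11 FPKM, and the transport motor KIF5B at 5.204 and 1.16 FPKM. NUSAP1 was at 27.4 and 9.37 FPKM, but shares 54.3% of its words with another gene. With the trend removed the list had a median of 0.34, the highest of all, and 2 members were still 2-fold higher, DLGAP5 and NUSAP1. At the low end KIF22 was at 36.2 FPKM labelled after and 44.1 FPKM labelled before, and TACC3 at 25.2 and 30.6 FPKM.

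Of 21 genes of cohesin, condensin and topoisomerase II, the machinery that holds and folds chromosomes, 6 were 2-fold higher and 0 lower, with a median of 0.72. TOP2B was at 4.46 FPKM labelled after and 0.912 FPKM labelled before, TOP2A at 5.63 and 1.40 FPKM, NCAPG at 6.04 and 1.92 FPKM and SMC1A at 10.8 and 3.94 FPKM. These genes are poor in GC, at a median of 40.8%, and with the trend removed the median was 0.13 and 0 were 2-fold higher. The 37 kinetochore and checkpoint genes had 3 higher, 1 lower and a median of 0.43, or 0.09 with the trend removed, with NDC80 at 6.29 and 2.07 FPKM, BUB1 at 10.6 and 4.45 FPKM, and SKA1 the lower one. The cyclins and kinases that start mitosis were closer to 0. CDK1 was at 9.04 FPKM labelled after and 4.26 FPKM labelled before and CCNB1 at 36.4 and 32.9 FPKM, while CDC25B, the phosphatase that activates CDK1, was at 17.1 and 32.7 FPKM and PLK1 at 16.6 and 20.5 FPKM. The median of these 19 genes was 0.29, or 0.11 with the trend removed. The 18 genes of the anaphase-promoting complex, which ends mitosis, had a median of 0.06, or -0.08 with the trend removed, with CDC27 at 2.945 and 0.787 FPKM and UBE2S at 141 and 212 FPKM.

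Replication, repair and chromatin genes were described next. The 51 replication genes had a median of 0.28, with 3 higher and 0 lower: RFC1, which loads the sliding clamp, was at 7.23 FPKM labelled after and 2.19 FPKM labelled before, whereas MCM7 of the helicase was at 73.0 and 99.2 FPKM. The 45 repair genes had a median of 0.38, with PRKDC, the kinase of end joining, at 8.26 and 3.05 FPKM. These medians were 0.01 and 0.04 with the trend removed. The 36 chromatin remodellers had 5 higher, 0 lower and a median of 0.43, or 0.28 with the trend removed. CHD2 was at 4.67 FPKM labelled after and 1.04 FPKM labelled before, the motor SMARCA5 at 7.71 and 2.48 FPKM, CHD7 at 3.40 and 1.009 FPKM and BAZ1B at 17.0 and 7.33 FPKM. Of 31 Polycomb genes, which repress by histone methylation and ubiquitination, 2 were 2-fold higher, with a median of 0.16, or 0.04 with the trend removed, and BMI1 was at 3.998 and 0.808 FPKM. Of 172 ZNF genes 10 were 2-fold higher and 0 lower, with medians of 0.21 and 0.03. The 37 replication-dependent histone genes had a median of -0.04, or 0.10 with the trend removed, and polyadenylated RNA holds few of their usual messages.

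Of 63 ribosome biogenesis genes 7 were 2-fold higher and 0 lower, with a median of 0.35. Once the trend was removed 1 was 2-fold higher and the median was 0.12. DDX21, a nucleolar helicase, was at 34.4 FPKM labelled after and 10.4 FPKM labelled before, and NOP58, a core protein of small nucleolar particles, at 20.2 and 7.57 FPKM. FBL, the methyltransferase of the same particles, was at 234 and 323 FPKM. The 82 cytosolic ribosomal proteins had 0 members 2-fold apart and a median of -0.16, with 26 above 0, and their median was -0.17 with the trend removed. RPS2 was at 582 FPKM labelled after and 1053 FPKM labelled before and RPL8 at 1122 and 1725 FPKM, while RPS24 was at 149 and 97.2 FPKM. Ribosomal proteins have many pseudogenes, and RPS2 shares 37.4% of its words with other genes. Of 71 splicing factors 7 were higher, such as SF3B1 at 23.2 and 9.39 FPKM, with a median of 0.36 that was 0.05 with the trend removed. Of 55 genes of nuclear pores and transport 4 were higher, with IPO7 at 12.1 FPKM labelled after and 3.96 FPKM labelled before, and the median was 0.46, or 0.04 with the trend removed. The 46 initiation factors had a median of 0.15, or -0.01 with the trend removed, with EIF3A and EIF2A, at 10.4 and 3.77 FPKM, 2-fold higher and EIF3G at 62.3 and 93.0 FPKM.

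The secretory pathway of the plasma cell was followed from entry to exit. For entry into the endoplasmic reticulum, the signal recognition particle subunits SRP72 and SRP54 were at 16.1 FPKM labelled after and 5.50 FPKM labelled before and at 6.75 and 2.84 FPKM, and the translocon partner SEC63 at 6.73 and 2.63 FPKM. In the same list of 35 genes DDOST, of the oligosaccharide transferase, was at 414 and 565 FPKM, and the median was 0.26, or 0.09 with the trend removed. For folding, 30 genes had a median of 0.19, or 0.07 with the trend removed, and 2 higher, HSP90B1 and the stress sensor EIF2AK3, which encodes PERK, at 20.9 and 8.28 FPKM. HSPA5, or BiP, was at 1181 FPKM labelled after and 787 FPKM labelled before, and PPIB, a folding isomerase, at 829 and 1027 FPKM. For removal of misfolded chains, 32 genes had a median of 0.17, or -0.0078 with the trend removed, and SEL1L was at 56.6 and 24.3 FPKM.

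For transport to the Golgi, 55 genes of the COPII and COPI coats and their tethers had 3 higher, 0 lower and a median of 0.29, which was -0.0038 with the trend removed. LMAN1, USO1, a tether at 6.09 FPKM labelled after and 1.98 FPKM labelled before, and COPB1, a coat subunit at 19.3 and 8.17 FPKM, were the higher ones, and ARF1, TMED9 and ARF5, at 40.5 and 64.8 FPKM, stood at the low end. Of 37 RAB GTPases 3 were higher: RAB5B, RAB1A and RAB40C, at 3.46 FPKM labelled after and 1.05 FPKM labelled before. RAB5B and RAB40C remained 2-fold higher with the trend removed, while the list's median of 0.36 was then -0.04. The 42 endosomal sorting genes had a median of 0.25, or 0.0035 with the trend removed, and 1 higher, the ESCRT ATPase VPS4B at 10.5 and 4.45 FPKM. Of 50 genes of autophagy and lysosome 3 were higher and 1 lower, with medians of 0.09 and -0.02. In autophagy MAP1LC3B was at 27.3 FPKM labelled after and 12.6 FPKM labelled before, opposite to its relative GABARAPL1, and TAX1BP1, a cargo receptor, at 4.14 and 1.24 FPKM.

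In protein turnover, of 43 genes of cullin ligases 3 were higher, such as CUL2 at 5.67 FPKM labelled after and 1.83 FPKM labelled before, with a median of 0.35 that was -0.0018 with the trend removed. Of 30 USP deubiquitinases 2 were higher, USP1 at 8.04 and 2.15 FPKM and USP7, which removes ubiquitin from p53 and its ligase MDM2, at 22.3 and 10.3 FPKM, and the median of 0.57 was 0.06 with the trend removed. The 46 proteasome genes had a median of -0.10 on both scales, and 2 were higher: PSME3 and PSMA3, a core subunit at 25.02 FPKM labelled after and 10.7 FPKM labelled before. The core subunit PSMB3 was at 203 and 279 FPKM. Cytosolic chaperones were led by HSP90AA1, with HSPA4 at 22.1 and 10.3 FPKM and 4 of 30 higher, and their median was 0.21, or 0.05 with the trend removed. DNAJB5, a co-chaperone at 3.06 FPKM labelled after and 0.776 FPKM labelled before, was 2-fold higher on both scales.

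Of 31 p53 targets 5 were 2-fold higher and 1 was lower, with a median of 0.28 that was 0.02 with the trend removed. PMAIP1 was the highest and RBM38 the lowest, and both passed 2-fold on both scales. The death receptor FAS was at 3.33 FPKM labelled after and 0.732 FPKM labelled before, MDM2 at 13.5 and 5.91 FPKM, and CCNG1 at 9.96 and 4.30 FPKM. In the BCL2 family, 16 genes were measured, with PMAIP1 the only one 2-fold apart and the median, -0.18, the lowest of all lists as deposited, or -0.08 with the trend removed. Of the survival members, MCL1 was at 93.6 FPKM labelled after and 60.4 FPKM labelled before, BCL2 at 25.2 and 20.6 FPKM, BCL2L1 at 43.0 and 46.8 FPKM, and BCL2L2 at 2.09 and 1.66 FPKM. Of the effectors, BAX was at 23.8 and 30.6 FPKM and BAK1 at 22.6 and 27.1 FPKM. The BH3-only members apart from PMAIP1 were BAD at 29.9 FPKM labelled after and 47.2 FPKM labelled before, BMF at 25.4 and 22.8 FPKM, BCL2L11 at 14.96 and 16.4 FPKM, BBC3 at 14.5 and 18.1 FPKM, BID at 4.72 and 6.66 FPKM, BIK at 2.31 and 3.91 FPKM and HRK at 1.08 and 1.44 FPKM. The relatives BCL2L12 and BCL2L13 were at 17.1 and 23.6 FPKM and at 3.69 and 2.999 FPKM. BID, BCL2L11 and HRK stood lowest once the trend was removed, at -0.58, -0.57 and -0.52.

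Genes that class myeloma differed little. All 7 measured members of the t(4;14) and cyclin D list were within 2-fold, with ratios between -0.03 for FGFR3 and 0.42 for CCND3, which was at 5.95 FPKM labelled after and 4.19 FPKM labelled before. CCND2, the D cyclin of this line at its highest level, was at 20.2 and 18.9 FPKM, MYCL at 4.63 and 4.14 FPKM and MYC at 4.19 and 3.86 FPKM. Among the 23 measured plasma cell genes ELL2, an elongation factor that favours secretory immunoglobulin message, was 2-fold higher, at 17.4 FPKM labelled after and 6.66 FPKM labelled before. PRDM1, the factor of terminal differentiation, was at 28.2 and 16.8 FPKM and XBP1 at 122 and 117 FPKM. On the surface, 16 therapy targets had 0 members 2-fold apart, with medians of 0.16 as deposited and -0.04 with the trend removed. SLAMF7 was at 52.5 FPKM labelled after and 34.5 FPKM labelled before, CD38 at 19.9 and 15.9 FPKM, TNFRSF17, which encodes BCMA, at 41.6 and 35.3 FPKM, and GPRC5D at 1.40 and 1.13 FPKM.

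Interferon-stimulated genes lay on both sides of 0. Of 43 measured 3 were 2-fold higher and 1 lower, with a median of 0.52 that was 0.05 with the trend removed. IFI16, a DNA sensor, was at 34.2 FPKM labelled after and 10.97 FPKM labelled before, and the RNA sensor IFIH1 at 5.43 and 2.02 FPKM, while ISG15, a ubiquitin-like modifier, was at 638 and 1039 FPKM next to IFI27. Of 26 antigen presentation genes measured, 2 were 2-fold higher and 0 lower, and only 7 were above 0. Their median was -0.12, or -0.04 with the trend removed. At the high end, the trimming peptidase ERAP2 was at 15.2 FPKM labelled after and 5.58 FPKM labelled before. HLA-F, a class I gene that shares 21.6% of its words with other genes, was at 50.7 and 20.4 FPKM. B2M, the class I light chain, was at 738 FPKM labelled after and 603 FPKM labelled before, and CD74, the class II chaperone, at 578 and 721 FPKM. NF-kB genes had 0 of 27 members 2-fold apart and medians of -0.06 as deposited and -0.01 with the trend removed, with RELB of the alternative pathway at 23.1 and 42.3 FPKM. Of 29 cytokine receptor and JAK-STAT genes 2 were 2-fold higher and 0 lower, with a median of 0.14. With the trend removed 0 were 2-fold higher and the median was -0.04. At the high end, IFNAR1 was at 4.59 FPKM labelled after and 1.47 FPKM labelled before and the phosphatase PTPN11 at 8.52 and 3.06 FPKM. Of 19 adhesion and homing genes 2 were 2-fold higher and 0 lower, with medians of -0.02 as deposited and 0.02 with the trend removed. The integrins of marrow homing ITGA4 and ITGB1, at the high end, were at 5.61 and 2.06 FPKM and at 20.6 and 7.51 FPKM.

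Of 33 immediate early genes, which cells induce within minutes of stimulation, 1 was 2-fold higher, KLF6 at 20.5 FPKM labelled after and 9.02 FPKM labelled before, and the median was 0.04. This share is near that of all genes, and JUN was at 142 FPKM labelled after and 214 FPKM labelled before. Of 23 genes of membrane repair and mechanosensing 0 were 2-fold apart, with a median of -0.09. Of 63 actin cytoskeleton genes 5 were higher, led by ARPC5 and TPM4, and 1 was lower, LASP1, with a median of 0.20; with the trend removed 1 was higher and 1 lower and the median was 0.04. In the MAP kinase list DUSP3, a phosphatase that acts on ERK, was at 4.77 FPKM labelled after and 0.773 FPKM labelled before, a ratio of 1.70 and of 1.46 with the trend removed. GRB2, the adaptor from receptors to RAS, was at 37.0 and 18.4 FPKM.

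The 13 mitochondrially encoded proteins had ratios between -0.22 and 0.16 and a median of 0.01, or -0.23 with the trend removed. Of the 2 ribosomal RNAs MT-RNR1 was at 810 FPKM labelled after and 1764 FPKM labelled before and MT-RNR2 at 3249 and 2748 FPKM. Polyadenylated RNA was selected, so levels of ribosomal RNA here depend on what that step retains. The 80 nuclear respiratory chain genes had a median of -0.12, or -0.17 with the trend removed, with 33 above 0 and ATP5F1D of the ATP synthase lowest, at 24.1 and 53.5 FPKM. In H929 their median was 0.26 as deposited and 0.27 with the trend removed. The 43 import and dynamics genes had 4 higher and 0 lower, with medians of 0.04 and -0.05. TFAM, the packaging factor of mitochondrial DNA, was at 6.02 FPKM labelled after and 2.05 FPKM labelled before and OPA1, which fuses inner membranes, at 2.41 and 0.638 FPKM, while TOMM5 was at 21.4 and 41.5 FPKM beside TIMM10 and TOMM7. MRPL36 of the mitochondrial ribosome was at 9.60 and 30.1 FPKM. Of 37 hypoxia and glycolysis genes 2 were 2-fold higher and 1 lower. Their median was 0.02, or -0.06 with the trend removed, and 0.01 in H929 as deposited. At the low end the hypoxia-induced lipid droplet protein HILPDA was at 15.4 FPKM labelled after and 32.7 FPKM labelled before. The peptide hormone ADM was at 171 and 317 FPKM. In H929 HILPDA was at 33.6 and 3.53 FPKM and ADM at 68.3 and 28.8 FPKM.

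Many ratios past 4-fold belonged to gene models that share sequence with others. Words shared with another gene made up 20% or more in 17 of the 26 genes 4-fold higher and in all 19 of those 4-fold lower, against 20.5% of all genes measured, and the counting could split their reads either way, so these are uncertain. The other 9 include RAB5B, ZNF146 and SPATA2. Of the models that share sequence, the microRNA gene MIR3652, inside a longer transcript, was at 214 FPKM labelled after and near 0 labelled before. The pseudogene PDIA3P1, which shares 34.8% of its words, was at 25.1 and 1.16 FPKM. At the other end, the read-through ATP6V1G2-DDX39B was at 2.07 FPKM labelled after and 26.6 FPKM labelled before. By gene type, 14.5% of the 83 small nucleolar RNAs measured were 2-fold higher and 9.64% lower, and 16.7% and 12.5% of the 48 microRNA genes, against 3.97% and 0.796% of protein-coding genes. Long intergenic RNAs had 4 of 171 higher and 4 lower.

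The authors' deposited table marks 586 KMS28BM genes as significant, 488 of them up (0.805% of 60612 IDs) and 98 down (0.162%), with no replicates and a largest marked p-value of 0.0498 before adjustment. By the q-values of the authors' deposited table, 16 genes were under 0.05. Of the 59 genes that led the rankings described here, 34 are marked in the authors' deposited table. Over all 10472 genes measured, 417 are marked there. Those marks and these rankings come from the same 2 libraries, so the overlap follows from the choice of genes and is no separate check. Of these 34 genes, 3 had a q-value under 0.05 in the authors' deposited table: RAB5B, SPATA2 and ZNF146. DAG1, a dystroglycan that binds the matrix, also had a q-value under 0.05 in the authors' deposited table and was at 4.17 FPKM labelled after and 0.185 FPKM labelled before.

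In H929 the same comparison gave 176 genes higher (1.59% of 11083) and 573 lower (5.17%). Of the 9261 genes measured in both lines, 102 were 2-fold higher in KMS28BM and 2-fold lower in H929, 16 were higher in both, 9 were lower in KMS28BM and higher in H929, and 13 were lower in both. With the trends removed, H929 had 2.37% of its genes 2-fold higher and 2.29% lower. Among the shared genes on that scale, 10 were higher in KMS28BM and lower in H929, 11 were higher in both, 25 were lower in KMS28BM and higher in H929, and 11 were lower in both. RAB5B, ZDHHC18 and PIP4K2C were 2-fold higher in both lines as deposited: in H929 RAB5B was at 5.23 FPKM labelled after and 1.82 FPKM labelled before, ZDHHC18 at 16.6 and 5.03 FPKM, and PIP4K2C at 9.02 and 3.33 FPKM.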

How the data were processed

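Per the labels' protocols, Trizol was used to extract total RNA, and libraries were made from its polyadenylated part; 4 libraries were made, 1 per line and sorting label. The deposited values are FPKM, per the file headers; the authors deposited 1 table per line. Bowtie 0.12.2, HISAT2 2.0 and StringTie 1.3.0 are named in the submitters' processing notes without roles, and the build named there is of the mouse, while the gene IDs are human; no source used here gives the human build. The deposited fold ratio and its log2 value, with a floor of 0.0001 FPKM, and likewise the deposited p-value and q-value of each gene come from the authors, by a test that no source used here names. They were not used for any ratio. The protocol text speaks of an adipose type, which the other labels do not.

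The log2 ratio, labelled after over before, had a pseudocount of 1 and was taken where either library reached 1 FPKM; the pseudocount of 1 shrinks low genes. GENCODE 29, where 58394 IDs matched, gave the gene type, and its longest coding transcript the GC content and length, and 10423 of the 10472 genes measured had values. The trend was cubic in GC content and in log2 length, fitted on the protein-coding genes of each line separately and tested on simulated data. Shared sequence is the share of 50-base words found in another gene. For depth, the product of FPKM and length in genes with 1 transcript was searched for the peak that 1 fragment makes, which held 407 genes labelled after and 372 labelled before within 1%; counting errors follow from it and cover counting only. With 1 library per group no test was run, and the replicate error is unknown.

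Members, lists and pairs were chosen with earlier results of these data known. Named genes were protein-coding, shared under 20% of words and ranked by whichever of both ratios lay nearer to 0: 20 each way from those reaching 5 FPKM and 10 each way from those reaching 100 FPKM; the 20 most abundant genes; up to 3 members at each end of a list; and all measured members of the BCL2 and t(4;14) lists and markers. Some of the list ends and a few of the other genes and sequences are not reported here, and other members are examples chosen after their values were seen. Alternatives were pseudocounts of 0.1 and 5, a filter of 5 FPKM or none, a trimmed-mean scaling, centring on the median, removal of the trend or its parts, protein-coding genes only and thresholds of 1.5-fold and 4-fold; restriction to genes with under 20% of words shared was added after the data were seen. SciPy 1.17.1, pandas 2.3.3, numpy 2.4.6 and matplotlib 3.10.9 were run under Python 3.11.15.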

Additional observations from a re-analysis of the deposited data

Results flagged for a closer look

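Several results of KMS28BM pointed the opposite way in H929; with 1 library per group these differences between the lines were not tested. The rho of the ratio with GC content was -0.746 in KMS28BM and 0.544 in H929. List medians, labelled after over before, stood on opposite sides of 0 by 0.2 or more in both lines for 7 lists that were also on opposite sides with the trend removed, several of them there close to 0. Interferon-stimulated genes had a median of 0.519 in KMS28BM and -0.745 in H929. USP deubiquitinases had 0.569 and -0.29, calcium stores and channels 0.383 and -0.276, and RNA decay 0.351 and -0.261, where the signs were exchanged with the trend removed, at -0.0019 and 0.059. Histone modifiers had 0.26 in KMS28BM and -0.31 in H929, translocon and glycosyl transfer genes 0.258 and -0.215, and retromer and ESCRT genes 0.251 and -0.391.

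Of the named genes, 9 were 2-fold or more apart in both lines in opposite directions, and RAB5B, ZDHHC18 and PIP4K2C in the same direction. Most were named for the size of their KMS28BM ratio, so these counts are no measure of all genes. Of the 9261 genes measured in both lines, 102 were 2-fold higher in KMS28BM and lower in H929, and 9 the other way. Another 16 were higher in both and 13 lower in both. ZNF146 had a ratio of 2.27 in KMS28BM and -2.12 in H929, UHMK1 2.02 and -1.27, EPRS1 1.80 and -1.63, and ZSWIM9 1.73 and -1.67. EIF3A had 1.70 in KMS28BM and -1.16 in H929, HSP90B1 1.44 and -1.24, and RNF4 1.42 and -1.26. The reverse held for ZDHHC12, at -1.93 in KMS28BM and 1.15 in H929, and for TMEM230, at -1.31 and 1.26. With the trend removed the signs stayed opposite, but the ratio in H929 was within 2-fold for UHMK1 at -0.53, EIF3A at -0.69 and ZDHHC12 at 0.83, and HSP90B1 was within 2-fold in both, at 0.95 in KMS28BM and -0.91 in H929.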

How the results depend on the processing

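The counts of 433 genes higher and 117 lower depended on the settings. They were 1283 and 214 with a pseudocount of 0.1, 58 and 36 with one of 5, 268 and 66 with a filter of 5 FPKM, and 1928 and 451 at 1.5-fold or 26 and 19 at 4-fold. Centred on the median, 266 were higher. With the trend removed 121 were higher, with GC content alone 103, and with length alone 232 with 188 lower. There were 71 lower among protein-coding genes and 47 lower among genes with little shared sequence; fewer genes were counted in both. The rho values with GC content and length moved by less than 0.1 under the 4 alternatives tried for each. Of 717 list medians recomputed, 24 turned from 0.2 or more to below 0. With the full trend removed these were -0.0038 for COPII and COPI, -0.050 for SNAREs, -0.041 for RAB GTPases, -0.044 for zinc transport, -0.0018 for cullin ligases, -0.0019 for RNA decay and -0.048 for long noncoding RNAs. With GC content alone they were -0.028 for the kinetochore, -0.0091 for replication, -0.021 for chaperones, -0.039 for the translocon, -0.032 for SNAREs, -0.029 for RAB GTPases, -0.0074 for endosome sorting, -0.053 for V-ATPase, -0.032 for E2 enzymes and -0.18 for long noncoding RNAs. With length alone they were -0.012 for SNAREs, -0.018 for zinc transport, -0.068 for histone modifiers and -0.0044 for ZNF genes. With a filter of 5 FPKM they were -0.17 for SNAREs, -0.10 for interferon-stimulated genes and -0.10 for ZNF genes. Beyond what these settings do by construction, the cause was not tested. Of 590 ratios of the named genes recomputed, 0 changed sign. These genes were chosen to have the same sign as deposited and with the full trend removed, so that setting could not reverse them. They were also ranked by the size of their ratios, so the count says little about genes in general. No paired analysis was possible because each KMS28BM group has 1 library, which makes 1 pair; a fit over both lines, which addresses what they share, was not run. The main limits are 1 library per side, a sorting label that the series title may contradict, and a composition trend as large as the differences of most gene groups.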

Other observations

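The list of aminoacyl-tRNA synthetases had 31 measured members and did not hold EPRS1. Of these 31, 1 was 2-fold higher and 0 lower, near the share over all genes. EPRS1, outside the list, was also 2-fold higher, with a ratio of 1.80, or 1.25 with the trend removed. IARS1 was at 18.3 FPKM labelled after and 8.10 FPKM labelled before and TARS1 at 52.8 and 26.7 FPKM, whereas the mitochondrial VARS2 was at 2.87 and 5.32 FPKM. In cholesterol synthesis IDI1 was at 11.9 FPKM labelled after and 4.94 FPKM labelled before, while EBP was lower. In the list of amino acid stress genes the transporter SLC38A2 was at 29.5 and 11.8 FPKM and CHAC1, which degrades glutathione, at 39.6 and 60.1 FPKM. Among long noncoding RNAs MALAT1 was at 5.47 FPKM labelled after and 1.302 FPKM labelled before and NORAD at 28.0 and 13.6 FPKM, while GAS5 was at 33.6 and 37.5 FPKM.

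With the trend removed, the 37 mitochondrially encoded transcripts had a median of -0.34 in KMS28BM, the lowest of all lists, and 1.18 in H929. Of the 37, 22 are transfer RNAs far shorter than the coding transcripts on which the trend was fitted. Values of these 22 lie outside the fitted range of length, and their median in KMS28BM was -0.87 with the trend removed. The 13 encoded proteins were among the fitted genes, with a median of -0.23 there.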
